A study of Mus musculus with 2 samples.

Results

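The cells described here were inflammatory neutrophils with a high level of Il1b, the gene of the cytokine interleukin 1 beta, from healing skull defects of the mouse. They were chosen on raw UMI counts (a UMI is a molecular tag that marks 1 captured RNA molecule): at least 20 of S100a8, at least 2 of Csf3r, at least 10 of Il1b, under 20 of Ltf and under 10 of C1qa, C1qb and C1qc together. The rule was met by 324 cell barcodes of the CGG library and 688 of the CGG-Cit library, 1012 of the 22810 barcodes kept by quality limits of 200 genes or more and no more than 20% of UMIs from mitochondrial genes. Both libraries came from wild-type C57BL/6 mice with 2 mm defects of the parietal bone, taken at day 14 after surgery. A CGG hydrogel had been implanted in 1 group and a CGG-Cit hydrogel in the other. The labels spell out neither abbreviation and give neither the number nor the age or sex of the mice. Tissue was digested in 0.3% collagenase, passed through a 70 µm strainer and read by droplet-based 3' RNA sequencing, with no sort named. With 1 library per hydrogel there was no replicate: a hydrogel difference and a difference between mice or preparations cannot be told apart, and every interval covers counting error only.

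Neutrophils are short-lived phagocytes that leave the bone marrow with preformed granules. At an inflamed site they turn on a second program, in which signals from Toll-like and interleukin 1 receptors free the transcription factor NF-kappaB from its inhibitors. NF-kappaB then induces Il1b, chemokines such as Cxcl2, which draws in further neutrophils through the receptor Cxcr2, and its own inhibitors such as Nfkbia. Interleukin 1 beta is made as an inactive precursor that inflammasomes such as that of Nlrp3 cut to the active cytokine, so a transcript level says nothing about released protein.

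The filtered barcodes numbered 12279 for CGG and 10531 for CGG-Cit, with medians of 3921 and 6232 UMIs. All 4 marker genes were found in the members of both libraries: besides Il1b these are Csf3r, the receptor of the growth factor G-CSF, Stfa2l1, a stefin A protease inhibitor of neutrophils, and Hcar2, a receptor for butyrate and nicotinic acid. All 10 markers of a neutrophil list were found as well, as were all 7 each of the B-lineage, erythroid and mesenchymal lists. The rule required Il1b, Csf3r and S100a8. Counts were summed over members, so detection alone does not give a cell type. Members held a median of 3628 UMIs and 1076 genes in CGG, and 3697 UMIs and 1018 genes in CGG-Cit. The libraries shared 34 barcode sequences. No barcode was a member in both, and 2 member barcodes occurred in the other library.

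The rule used Il1b, so its level only describes the members. In CGG a member held between 10 and 129 Il1b UMIs with a median of 25, and in CGG-Cit between 10 and 123 with a median of 28. Among all neutrophil barcodes low in Ltf, the counts ran on from 0 to above the threshold. The bins drawn widen to the right, so their heights do not show a mode above the threshold. A count of 0 was held by 65 barcodes in CGG and 226 (19.2%) in CGG-Cit, and a count of 1 by 33 and 84. Near the threshold there was no gap: 31 barcodes of CGG and 61 of CGG-Cit lay just inside it with 10 to 12 UMIs, and 43 and 61 lay just outside with 7 to 9 UMIs. In CGG the barcodes just inside held 2422 CPM (UMIs of the gene per 1000000 UMIs) of Cxcl2 and 235 CPM of Hcar2, and those just outside 2020 and 239 CPM. In CGG-Cit these were 1277 and 202 CPM inside and 1488 and 200 CPM outside. Stfa2l1 differed more across the threshold, at 853 CPM inside and 412 CPM outside in CGG and at 404 and 270 CPM in CGG-Cit. For Csf3r, 77 members of CGG and 169 of CGG-Cit held just the 2 UMIs required, while 53 and 135 barcodes met all else with 1 UMI. S100a8 was just met (20 to 29 UMIs) by 6 and 16 members, and 12 and 30 barcodes fell short with 10 to 19 UMIs. Ltf was at 10 to 19 UMIs in 5 and 11 members and at 20 to 29 UMIs in 5 and 9 barcodes outside. The C1q sum stood at 5 to 9 UMIs in 6 and 0 members, and at 10 to 14 UMIs in 3 and 1 barcodes outside.

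**Figure D1:**
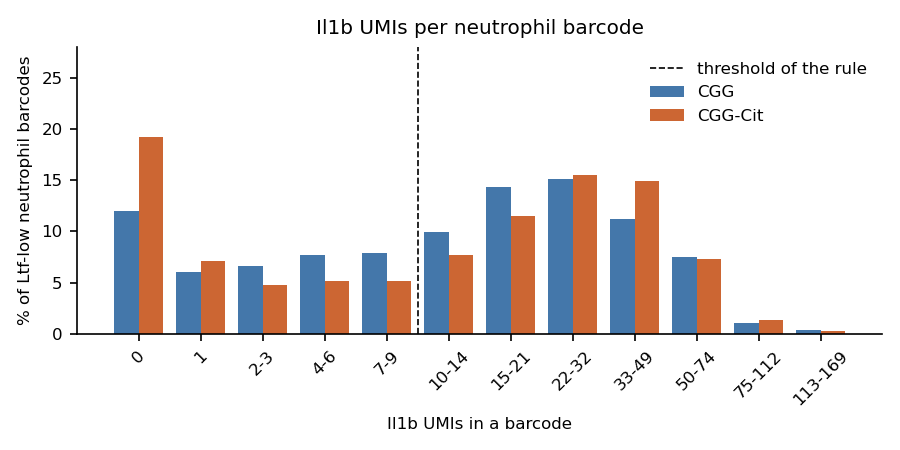
Share of Ltf-low neutrophil barcodes (y axis, percent) by their Il1b UMIs (x axis, bins that widen to the right) in each library. The dashed line is the threshold of 10 UMIs; the bins at 22 to 32 UMIs hold 15.1% of CGG and 15.5% of CGG-Cit barcodes.

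Il1b summed over members reached 5817 CPM in CGG (95% exact Poisson interval 5703 to 5933) and 5566 CPM in CGG-Cit (5492 to 5639). Members were 2.64% and 6.53% of filtered barcodes and held 26.5% and 53.1% of all Il1b UMIs in the respective library. The other populations below were cut by raw counts in the same way. Neutrophils that met the same rule with under 10 Il1b UMIs, called low-Il1b neutrophils, numbered 219 and 488 and held 300 and 117 CPM of Il1b. Neutrophils rich in Ltf, the lactoferrin gene of immature cells, numbered 228 and 523 and held 790 and 378 CPM. Monocytes (436 and 534 barcodes) held 1009 and 452 CPM, and macrophages (1527 and 25 barcodes) 388 and 193 CPM. B-lineage barcodes, which should lack the gene, held 88.8 and 32.2 CPM.

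Hcar2 was not in the rule. Members held 399 CPM of it in CGG and 422 CPM in CGG-Cit, and the next population in order, Ltf-rich neutrophils, 84.6 and 59.4 CPM. Low-Il1b neutrophils followed at 72.6 and 58.7 CPM. The intervals of those 2 populations overlapped each other in both libraries, and neither reached the members' interval. Among barcodes of at most 10000 UMIs the gap was smaller: Hcar2 in members was 2.08 times its level in low-Il1b neutrophils in CGG and 1.93 times in CGG-Cit, against 5.50 and 7.20 times over all barcodes. Monocytes held 21.0 and 23.5 CPM and B-lineage barcodes 3.31 and 3.06 CPM. Stfa2l1 stood at 614 and 598 CPM in members, 171 and 94.9 CPM in low-Il1b neutrophils and 99.5 and 60.5 CPM in Ltf-rich ones. This gap too is over barcodes of any depth. For the stefin A genes as a list, the median log2 ratio of members over low-Il1b neutrophils was 1.22 in CGG and 2.06 in CGG-Cit. Among barcodes of at most 10000 UMIs it was 0.31 and 0.04, with 3 of 5 and 3 of 6 measured genes higher. Stfa2l1 was spread unevenly: the median member held 0 UMIs of it in both libraries, the upper quartile was 3, and the highest member held 50 in CGG and 54 in CGG-Cit.

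**Figure D2:**
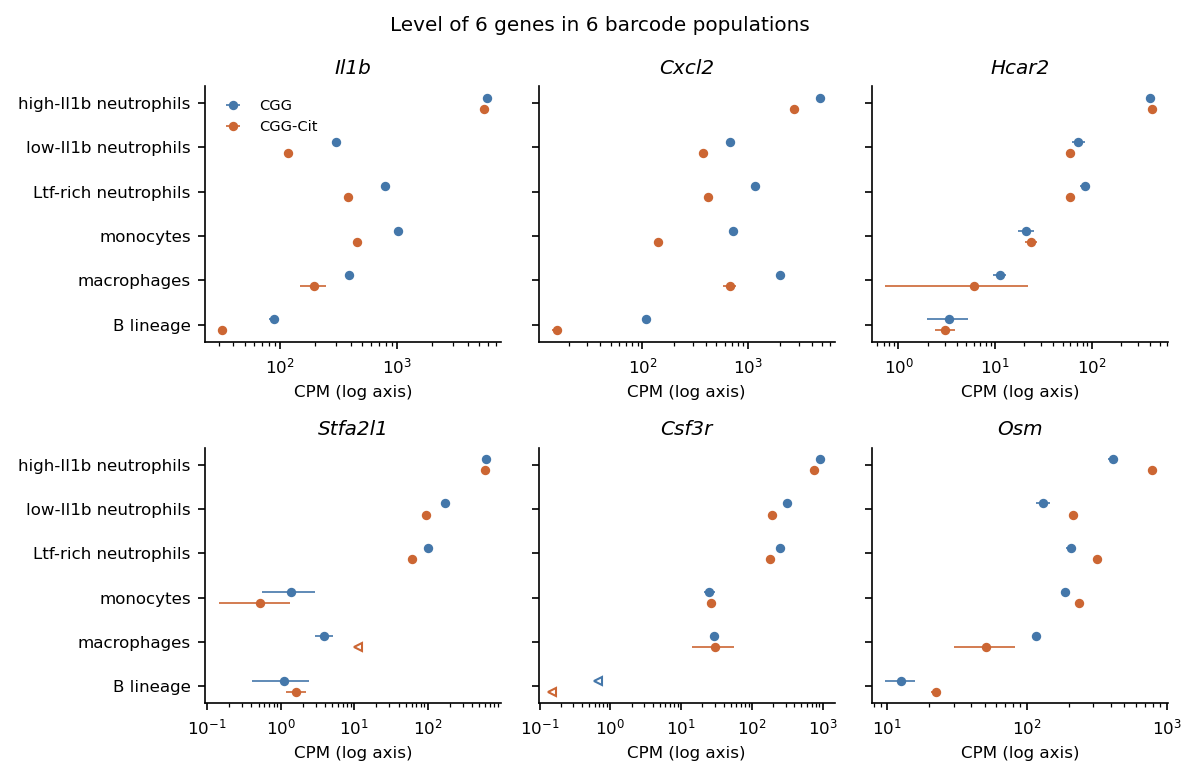
Summed level (x axis, CPM, log axis) of 6 genes in 6 barcode populations of each library, with exact 95% Poisson intervals; an open triangle is the upper limit of a level of 0. Over barcodes of any depth members have the highest level of all 6 genes in both libraries, for example 399 and 422 CPM of Hcar2.

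A few deep barcodes weighed on these sums. Members of more than 10000 UMIs numbered 25 in CGG and 64 in CGG-Cit, but held 31.0% and 39.4% of all members' UMIs. The neutrophil proteins S100a8 and S100a9 together made up a median 3.13% and 3.67% of their UMIs, against 21.1% and 22.7% in the other members. A doublet caller, Scrublet, marked 18 of the 25 and 31 of the 64, and 35 (10.8%) and 70 (10.2%) of all members. Over all filtered barcodes 9.82% and 5.10% were marked. In CGG its own threshold marked 1 barcode, so the highest scores up to a set rate were marked there. Genes of other cells were concentrated in the deep members. Jchain, the joining chain of plasma cells, was at 1095 CPM in CGG members and 362 CPM in CGG-Cit members, with 99.5% and 98.7% of its UMIs from 5 barcodes each. Markers of erythroid cells summed to 24199 CPM in CGG and 50359 CPM in CGG-Cit over all members, and to 4517 and 10191 CPM over members of at most 10000 UMIs. B-lineage barcodes held 21735 and 39095 CPM of the same 7 genes. Values over members of at most 10000 UMIs, a limit chosen after the data were seen, are therefore given beside the list medians between hydrogels.

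**Figure D3:**
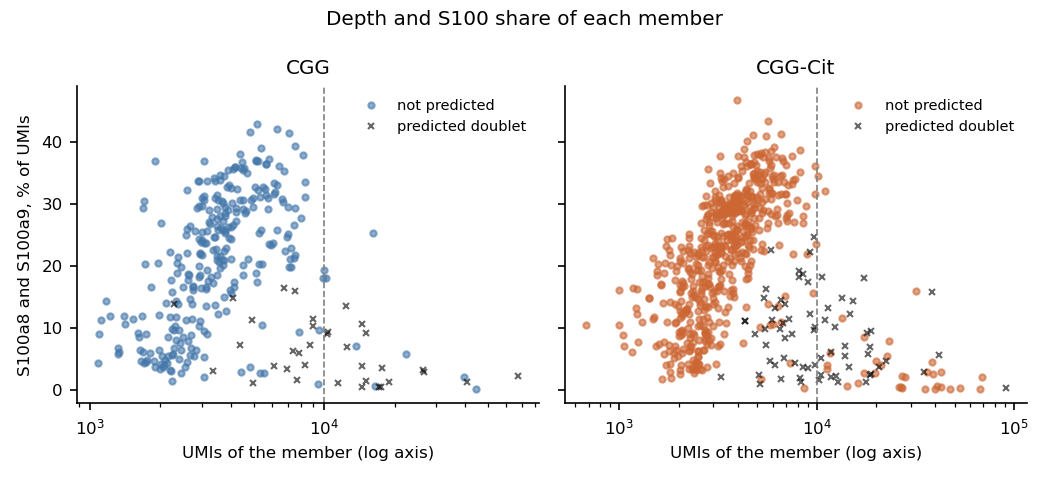
UMIs of each member (x axis, log axis) against the percent of them from S100a8 and S100a9 (y axis), by library; crosses are predicted doublets and the dashed line is 10000 UMIs. The 25 and 64 members to the right of the line have a median share of 3.13% and 3.67%.

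High-Il1b neutrophils were a larger share of the CGG-Cit library. They made up 2.64% of filtered barcodes with CGG (exact 95% binomial interval 2.36 to 2.94) and 6.53% with CGG-Cit (6.07 to 7.02), a difference of 3.89 percentage points (3.35 to 4.45) and a ratio of 2.48. The share of all neutrophil barcodes was higher by a similar ratio, 6.28% against 16.1%. Among neutrophil barcodes (S100a8, Csf3r and C1q as in the rule, at any Ltf and Il1b) members were 42.0% with CGG and 40.5% with CGG-Cit, a difference of -1.53 points (-5.74 to 2.64). This second difference depended on how depth was treated and on the Il1b minimum. At a minimum of 5 UMIs it was -5.11 points (-9.34 to -0.86), and at 20 UMIs 1.64 points (-2.24 to 5.39). With each barcode thinned to 1000 UMIs and thresholds lowered to match, the shares were 36.3% and 44.7%, a difference of 8.41 points (3.10 to 13.6).

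The rule splits neutrophils on Il1b, so members against low-Il1b neutrophils are described with no test. A gene at 2-fold or more above low-Il1b neutrophils was common: 807 of 7112 measured genes in CGG (11.3%) and 844 of 6914 in CGG-Cit (12.2%). The 15 genes with the highest ratio in the library where it was lower were Ptgs2, Sirpb1c, Cxcl2, Nlrp3, Ccrl2, Nfkbiz, Hcar2, Ptgs2os2, H2-Q10, Sirpb1b, 1600010M07Rik, Gm5150, Gadd45b, Ifitm1 and Csrnp1. Ptgs2, the inducible cyclooxygenase of prostaglandin synthesis, stood at 661 CPM in members and 65.1 CPM in low-Il1b neutrophils of CGG, and at 729 and 84.1 CPM in CGG-Cit. Nlrp3, the inflammasome sensor, was at 590 against 91.5 CPM and at 284 against 40.5 CPM. Ifitm1, an interferon-induced membrane protein, was at 789 against 161 CPM and at 803 against 69.0 CPM.

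The ratios were smaller without the deep barcodes. In all, 55 low-Il1b barcodes of CGG and 203 of CGG-Cit passed 10000 UMIs and held 73.4% and 84.9% of that population's UMIs. Among barcodes of at most 10000 UMIs the ratio of Ptgs2 was 4.06 in CGG and 2.53 in CGG-Cit, that of Nlrp3 2.44 and 2.08, and that of Ifitm1 1.90 and 3.42. The 10 genes lowest against low-Il1b neutrophils (Ms4a3, Gatm, Elane, Cst7, Prss57, Nkg7, B4galt6, Mpo, Pde4d and 1700020L24Rik) had ratios from 0.0744 to 0.133 in all barcodes. Several are genes of neutrophil precursors, and the 6 precursor markers summed to 16932 and 25517 CPM in low-Il1b neutrophils but to 541 and 180 CPM in those of at most 10000 UMIs. There Elane, the neutrophil elastase, had a ratio of 0.180 in CGG and 1.03 in CGG-Cit, so its lower level was not seen in the shallow barcodes of CGG-Cit.

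Between the hydrogels, 6529 genes were measured in members (at least 20 UMIs over both libraries and a mean of at least 10 CPM). Of these, 320 (4.9%) were at least 2-fold higher with CGG-Cit and 468 (7.17%) at least 2-fold lower. The median log2 ratio was 0.03, and 52.5% of the genes were above 0. In members of at most 10000 UMIs, 392 (6.0%) were at least 2-fold higher and 661 (10.1%) at least 2-fold lower. There the median was -0.04 and 46.3% were above 0. Counts of higher genes in the lists below stand beside these shares. The counts and medians of a list between hydrogels keep any gene of the rule that it holds. Summed levels of a list leave such genes out. Over the 524 genes that B-lineage barcodes held at under 0.25 of the members' level in both libraries, 4 genes were at least 2-fold higher and 63 at least 2-fold lower. The 4 were Fcnb, Stfa1, Stfa2 and the pseudogene Gad1-ps, named after their values were seen. Macrophage barcodes were fewer with CGG-Cit (25 against 1527), and B-lineage barcodes of CGG held 1784 CPM of 10 monocyte and macrophage markers against 80.8 CPM with CGG-Cit. Members held 1439 and 317 CPM of these markers. Mesenchymal markers summed to 5955 CPM in CGG members and 861 CPM in CGG-Cit members, and to 6769 and 298 CPM in B-lineage barcodes. The part of this RNA in each ratio below was not tested, so the B-lineage level stands beside the main genes. Where B-lineage cells transcribe a gene themselves, their level is not a measure of RNA from other cells. Which genes these are was not tested.

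NF-kappaB target genes and feedback inhibitors were mostly lower in CGG-Cit members. All 24 listed genes were measured: 1 was higher and 14 were at least 2-fold lower, with a median log2 ratio of -1.06. In members of at most 10000 UMIs the median was -0.995, with 12 at least 2-fold lower and 1 at least 2-fold higher. Nfkbia, the main inhibitor that holds NF-kappaB in the cytoplasm, stood at 1011 CPM in CGG and 551 CPM in CGG-Cit members, a ratio of 0.55 (exact conditional interval 0.51 to 0.58). Tnfaip3, which encodes the feedback inhibitor A20, stood at 304 and 125 CPM (ratio 0.41), and Plek, the phosphoprotein pleckstrin, at 999 and 425 CPM (0.43). Cd83, an activation marker of leukocytes, had the lowest ratio, 0.12, at 60.7 and 7.03 CPM. Its level in B-lineage barcodes was as high, 83.0 and 12.6 CPM. B-lineage barcodes held 344 and 375 CPM of Nfkbia, 69.7 and 39.6 CPM of Tnfaip3 and 66.8 and 19.7 CPM of Plek. The exception was Zfp36, whose product tristetraprolin promotes decay of cytokine mRNAs, at 820 and 1394 CPM (ratio 1.70, and 2.22 up to 10000 UMIs). The list's summed level had a ratio of 0.676 in low-Il1b neutrophils and 0.668 in members, and of 0.906 and 0.783 up to 10000 UMIs. In CGG and CGG-Cit the list summed to 7269 and 4860 CPM in members and 3540 and 2051 CPM in Ltf-rich neutrophils. B-lineage barcodes held 2065 and 1378 CPM, so the lower sum with CGG-Cit was not particular to members.

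Chemokine genes of neutrophils were lower with CGG-Cit for the most part as well. Of 12 measured, 3 were higher and 6 at least 2-fold lower, with a median log2 ratio of -0.96 (-0.88 up to 10000 UMIs). Cxcl2 was at 4800 CPM in CGG and 2712 CPM in CGG-Cit members, a ratio of 0.56 (0.55 to 0.58), and B-lineage barcodes held 108 and 15.5 CPM. Up to 10000 UMIs its ratio was 0.67. Ccl4, an inflammatory chemokine, was at 599 and 341 CPM (0.57), and Ccrl2, which presents the chemoattractant chemerin, at 300 and 140 CPM (0.47). Cxcl3 stood at 45.3 and 4.02 CPM (0.0886) and B-lineage barcodes held 1.84 and 0.0816 CPM of it. The lowest ratio, of Cxcl1 at 71.3 and 0.75 CPM, went with 46.2 and 0.12 CPM in B-lineage barcodes. Ccl6 did not share this direction, at 2011 and 2397 CPM (1.19), and Ccl3 was level at 150 and 151 CPM.

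The RefSeq promoters (build GRCm38.p6, 250 bases before the start) of these lists were searched on both strands for GGG followed after 2 free bases by TTTCC, a form of the site that NF-kappaB binds. It was found in 464 of all 32851 promoters (1.41%). Counted by gene, where a match in any promoter of the gene is enough, this was 447 of 27025 genes (1.65%). By gene it was found in 4 of 20 matched genes of the NF-kappaB list (Nfkb2, Nfkbia, Rel and Tnfaip3). Of the chemokine genes, 4 of 9 had it (Ccl9, Cxcl1, Cxcl2 and Cxcl3). Il1b had no match in this window. Its promoter is shown because the gene defines the cells, with those of Cxcl2 and Nfkbia as matched genes of the 2 lists, each 5′ to 3′ on the gene's own strand with the match in capitals. They lie at chr2:129371140-129371389 (minus strand), chr5:90903649-90903898 (plus strand) and chr12:55492648-55492897 (minus strand). A match is a description of these letters and not evidence of binding.
Il1b: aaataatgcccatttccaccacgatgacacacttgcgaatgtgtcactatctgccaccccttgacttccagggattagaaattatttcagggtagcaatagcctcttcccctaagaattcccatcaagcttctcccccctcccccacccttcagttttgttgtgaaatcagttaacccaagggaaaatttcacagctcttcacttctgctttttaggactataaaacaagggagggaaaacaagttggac
Cxcl2: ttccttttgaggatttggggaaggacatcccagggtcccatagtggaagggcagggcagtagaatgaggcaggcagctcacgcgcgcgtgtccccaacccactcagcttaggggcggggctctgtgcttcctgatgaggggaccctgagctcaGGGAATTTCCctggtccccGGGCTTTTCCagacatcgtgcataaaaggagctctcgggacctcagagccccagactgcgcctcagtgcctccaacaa
Nfkbia: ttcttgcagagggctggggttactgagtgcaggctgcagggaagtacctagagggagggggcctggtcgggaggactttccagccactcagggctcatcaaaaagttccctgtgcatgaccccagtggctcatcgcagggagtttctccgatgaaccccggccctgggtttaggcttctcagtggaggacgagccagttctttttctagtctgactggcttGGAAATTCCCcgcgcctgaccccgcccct

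Cxcl2 has 2 matches, which begin 97 and 78 bases before the start, and Nfkbia 1 match, 29 bases before the start.

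The level of Il1b in members, 5817 and 5566 CPM, was set in part by the rule and is not compared. In populations not chosen for a high level it was lower with CGG-Cit, at 790 and 378 CPM in Ltf-rich neutrophils and 1009 and 452 CPM in monocytes. B-lineage barcodes held 88.8 and 32.2 CPM. Of 16 measured genes of the interleukin 1 pathway 4 were higher and 4 at least 2-fold lower, with a median log2 ratio of -0.29 (-0.16 up to 10000 UMIs, with 3 at least 2-fold lower). Like the other list counts and medians, these keep any gene of the rule that the list holds. Il1r2, the decoy receptor that binds interleukin 1 without signalling, was at 1034 CPM in CGG and 378 CPM in CGG-Cit members (ratio 0.37, 0.34 to 0.39). B-lineage barcodes held 13.2 and 5.83 CPM of it. Nlrp3 stood at 590 and 284 CPM (0.48) and Irak2, a kinase below the receptor, at 65.4 and 22.9 CPM (0.35). Il1a, the sister cytokine, was low at 22.4 and 5.78 CPM (0.26). Il1rn, the receptor antagonist, was at 267 and 191 CPM (0.72). Pycard and Casp1, the adaptor and protease of inflammasomes, were at 74.8 and 108 CPM and at 24.7 and 27.4 CPM. The 3 genes with 2-fold lower values and over 50 CPM, Il1r2, Nlrp3 and Irak2, were also lower in low-Il1b neutrophils, at ratios of 0.32, 0.44 and 0.53.

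Receptors that guide neutrophils showed no common direction. Of 18 measured, 8 were higher, with a median log2 ratio of -0.14 (0.04 up to 10000 UMIs). Cxcr2 was at 602 and 716 CPM (1.19, 1.11 to 1.28), and Fpr1, a receptor for bacterial formyl peptides, at 162 and 191 CPM (1.18). Cxcr4, which holds neutrophils in the marrow, was at 382 and 257 CPM (0.67), below the 450 and 372 CPM of B-lineage barcodes. Ptafr, the receptor of platelet-activating factor, was at 277 and 120 CPM (0.43), and C5ar1, of complement C5a, at 451 and 298 CPM (0.66). Hcar2 differed little (1.06, 0.97 to 1.16). Among 19 measured genes of pattern recognition 6 were higher and 3 at least 2-fold lower, with a median of -0.21, and up to 10000 UMIs 9 were higher and 1 was at least 2-fold lower, with a median of -0.03. Tlr2 stood at 361 and 169 CPM (0.47), the endotoxin co-receptor Cd14 at 893 and 442 CPM (0.49) and Clec4e, which senses mycobacterial glycolipid, at 868 and 446 CPM (0.51). Fcgr3, an Fc receptor, was at 209 and 304 CPM (1.45), and the adaptor Tyrobp was near level at 4590 and 4482 CPM.

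Osm, the cytokine oncostatin M, which acts on osteoblast-lineage cells through gp130, went the other way from most signals. It stood at 412 CPM in CGG and 791 CPM in CGG-Cit members, a ratio of 1.92 (1.77 to 2.09), and 2.20 up to 10000 UMIs. B-lineage barcodes held 12.5 and 22.3 CPM. The gene was also higher with CGG-Cit in low-Il1b neutrophils, at 130 and 216 CPM (1.66, 1.46 to 1.88), in Ltf-rich neutrophils at 206 and 320 CPM, and in monocytes at 187 and 237 CPM. In macrophages it was lower, at 116 and 51.4 CPM, the latter from 25 barcodes. Among barcodes of at most 10000 UMIs, low-Il1b neutrophils held 411 and 1098 CPM of Osm and members 525 and 1157 CPM. There members stood at 1.28 and 1.05 times the low-Il1b level. Ptgs2 was at 661 and 729 CPM. The other 10 measured of 12 growth and repair signals were below a ratio of 1, and the median was -0.84 (-0.81 up to 10000 UMIs). Thbs1, the matrix protein thrombospondin 1, was at 1459 and 575 CPM (0.39), with 123 and 33.6 CPM in B-lineage barcodes. Sema4d, a semaphorin that restrains osteoblasts, was at 138 and 63.3 CPM (0.46), and Tnf at 60.7 and 30.7 CPM (0.51). Spp1, which encodes osteopontin, was at 190 and 32.2 CPM, with 124 and 12.4 CPM in B-lineage barcodes.

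Interferon-induced genes depended on the deep barcodes. Of 26 measured, 13 were higher with CGG-Cit over all members and the median was 0.00. Up to 10000 UMIs 22 were higher, 7 of them at least 2-fold, with a median of 0.38. Of all measured genes 52.5% and 46.3% were higher in these 2 settings. Isg15, a ubiquitin-like protein, was at 228 and 415 CPM (1.82, 1.63 to 2.04, and 2.19 up to 10000 UMIs). Rsad2, the antiviral enzyme viperin, was at 106 and 183 CPM (1.73), Slfn1 at 213 and 410 CPM (1.93), Rtp4 at 115 and 201 CPM (1.75) and Oasl2 at 86.6 and 147 CPM (1.70). B-lineage barcodes had the opposite direction for Isg15, at 189 and 65.5 CPM, and for Rsad2, at 76.7 and 31.2 CPM. Slfn1 was low there at 7.73 and 9.30 CPM. Ifit2 had the opposite direction in members, at 27.7 and 8.04 CPM (0.29). Low-Il1b neutrophils of at most 10000 UMIs also had a higher summed level of the list, by a ratio of 1.43 against 1.26 in members.

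A form of the interferon-stimulated response element, GAAA followed after 2 free bases by GAAA, was searched in the same promoters. It was found in 978 of 32851 promoters (2.98%), or 936 of 27025 genes (3.46%). By gene it was found in 12 of 24 matched genes of the interferon list: Cxcl10, Gbp2, Gbp5, Ifit1, Ifit3, Ifit3b, Ifitm2, Igtp, Isg15, Rsad2, Slfn5 and Stat2. Isg15 is shown as the member of the list with several matches and a higher level with CGG-Cit. Its promoter lies at chr4:156200819-156201068 (minus strand), and the 3 matches, which overlap, begin 78, 72 and 66 bases before the start.
Isg15: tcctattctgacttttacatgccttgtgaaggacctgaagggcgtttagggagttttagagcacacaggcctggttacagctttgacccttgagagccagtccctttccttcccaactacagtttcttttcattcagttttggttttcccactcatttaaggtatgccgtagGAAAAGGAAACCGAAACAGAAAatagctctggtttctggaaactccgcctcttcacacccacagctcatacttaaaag

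Immediate early genes split into 2 sets. Of 22 measured, 10 were higher with CGG-Cit, 3 of them at least 2-fold, and 2 were at least 2-fold lower, with a median of -0.25 that became 0.27 up to 10000 UMIs. Fos stood at 2005 and 3725 CPM (1.86, 1.79 to 1.93), Egr1 at 517 and 1074 CPM (2.08), Ier2 at 345 and 749 CPM (2.17) and Klf2, a factor that restrains myeloid activation, at 385 and 914 CPM (2.38). Junb, Dusp1 and Btg2 were above 1 as well, at ratios of 1.46, 1.40 and 1.42. All 7 ratios were higher up to 10000 UMIs, from 1.63 for Btg2 to 3.59 for Klf2. B-lineage barcodes went the other way for Fos (627 and 204 CPM), Egr1 (255 and 49.7 CPM) and Ier2 (128 and 97.8 CPM). They held 342 and 350 CPM of Klf2, close to the level in CGG members. Nr4a3, an orphan nuclear receptor, was far lower at 225 and 43.7 CPM (0.19), Maff at 49.5 and 15.1 CPM (0.30), Atf3 at 339 and 205 CPM (0.60) and Csrnp1 at 248 and 156 CPM (0.63). In members thinned to 1000 UMIs, the list's summed count had a median of 14 in CGG and 25 in CGG-Cit.

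Granule genes mark the stage of a neutrophil. Secondary and tertiary granule genes were near level: of 21 measured 9 were higher, with a median of -0.06, and up to 10000 UMIs 13 were higher, with a median of 0.08. Retnlg, a resistin-like protein of mature neutrophils, was at 18981 and 24143 CPM (1.27), Hp, haptoglobin, at 1125 and 1453 CPM (1.29) and Mmp8, a collagenase, at 966 and 1054 CPM (1.09). Of 7 measured primary granule genes 6 were higher and 0 at least 2-fold, with a median of 0.36. Up to 10000 UMIs 4 were at least 2-fold higher and 1 at least 2-fold lower, with a median of 1.12. There the list summed to 196 CPM in CGG and 282 CPM in CGG-Cit members. B-lineage barcodes held 203 and 533 CPM of the same genes, so these members were not above the B-lineage level. The part of RNA from other cells in this rise was not tested. Over all members, UMIs of primary granule genes were concentrated in few barcodes: 97.2% of Elane UMIs in CGG and 66.6% in CGG-Cit came from 5 members. At least 1 Elane UMI was held by 28 members of CGG and 181 of CGG-Cit. Prg2, a granule protein of eosinophils, had the same form, with 3 UMIs in CGG, 759 in CGG-Cit and 98.4% of the latter from 5 members. In the stefin A cluster 4 of 6 measured genes were higher, with a median of 0.33 (0.41 up to 10000 UMIs). Stfa1 was at 98.4 and 211 CPM (2.14, 1.81 to 2.55) and Stfa2 at 3.53 and 35.2 CPM (9.95, 4.46 to 27.6), while Stfa2l1 (0.97) and Gm5483 (1.05) differed little. Stefin A genes are near-identical copies, so how the authors' counting shared reads among them is uncertain, and 82.0% of the Stfa1 UMIs of CGG came from 5 members.

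The metabolic lists were close to level with single exceptions. Hypoxia and glycolysis genes had a median of -0.11 over 23 measured (-0.05 up to 10000 UMIs), with 8 higher. Slc16a3, which exports lactate, was at 1163 and 527 CPM (0.45) and Hif1a, the oxygen-sensitive factor, at 161 and 84.7 CPM (0.53). Of 17 genes listed for citrate and acetyl-CoA, 7 were measured and 5 were higher, with a median of 0.29 (0.09 up to 10000 UMIs, with 4 higher). Slc13a5, the plasma membrane citrate carrier, had 0 UMIs in members of both libraries. Irg1, which makes itaconate from the citrate cycle, stood at 849 and 296 CPM (0.35, 0.32 to 0.38), with 6.07 and 4.32 CPM in B-lineage barcodes. Oxidant and antioxidant genes had a median of -0.14 over 20 measured (-0.15 up to 10000 UMIs). The oxidase subunit Cyba was near level at 1092 and 1096 CPM and Cybb was at a ratio of 0.70, while Srxn1 (0.29) and its regulator Nfe2l2 (0.52) were lower. Survival and death genes had a median of -0.08 over 21 measured, with 6 at least 2-fold lower (0.05 and 5 up to 10000 UMIs). Mcl1, on which neutrophil survival rests, was at 1857 and 1711 CPM (0.92). Bcl2a1b, an anti-apoptotic target of NF-kappaB, was at 248 and 83.9 CPM (0.34), Gadd45b at 551 and 230 CPM (0.42) and Cdkn1a at 191 and 70.3 CPM (0.37). Bcl2a1 genes are near-identical copies too, so their split is uncertain.

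Genes named for Siglec-F neutrophils of tumours were lower in 12 of 14 measured, with a median of -1.14 (-1.02 up to 10000 UMIs), but Siglecf itself was at 4.12 and 4.52 CPM and not measured. Many are macrophage genes: Gpnmb was at 23.0 CPM with CGG and at 0 with CGG-Cit, and B-lineage barcodes held 77.6 and 0.20 CPM.

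**Figure D4:**
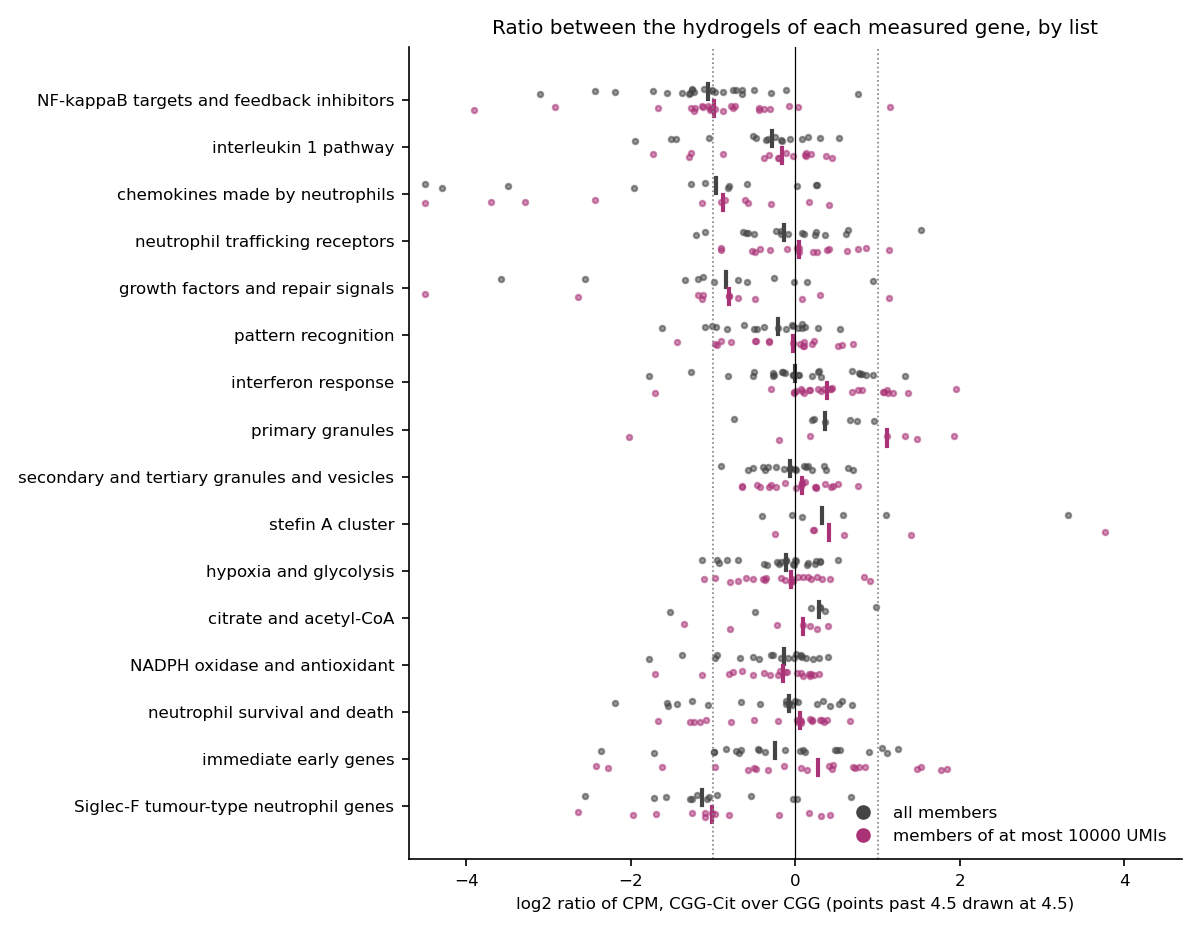
log2 ratio of CPM, CGG-Cit over CGG (x axis), of each measured gene of 16 lists (rows), over all members and over members of at most 10000 UMIs; bars are medians, dotted lines 2-fold, and genes at 0 in a library are not drawn. The median of NF-kappaB genes lies at -1.06 and -0.995, that of interferon genes at 0.00 and 0.38.

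Among genes that reached 50 CPM, 30 UMIs and 3 times the B-lineage level in the library where they were higher, the 10 genes highest with CGG-Cit were Prg2, Ier2, Egr1, Fcnb, Dfna5, Stfa1, Nkg7, Elane, Fos and Osm. Fcnb, Nkg7 and Elane drew at least 93.4% of their CGG UMIs from 5 members each. Dfna5, the pore-forming gasdermin E, did not: it was at 21.2 and 57.5 CPM (2.71, 1.90 to 3.97), found in 35 members of CGG and 177 of CGG-Cit. The 10 lowest were Tnip3, Nr4a3, Homer1, Bcl2a1d, Tgm2, Ell2, Vps37b, Rab20, Olr1 and Irg1. Tnip3 drew at least 87.5% of its UMIs in either library from 5 members. The others were spread more widely: Vps37b, of endosomal sorting, was at 690 and 214 CPM (0.31, 0.28 to 0.34), Tgm2, a transglutaminase, at 196 and 52.5 CPM (0.27), and Ell2, an elongation factor, at 164 and 44.7 CPM (0.27). Low-Il1b neutrophils had a ratio of 0.33 for Vps37b, 0.14 for Tgm2 and 0.27 for Ell2.

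Members varied among themselves. After thinning to 1000 UMIs the 10 genes with the highest variance over mean were Hbb-bs, Hba-a1, Hba-a2, Hbb-bt, S100a9, Retnlg, Jchain, Ccl4, Mgp and Cxcl2. The globins and Jchain, of erythroid and plasma cells, and Mgp, of stroma, are genes of other cells, while Ccl4 and Cxcl2 are made by neutrophils. Variance over mean was 12.6 for Cxcl2 in CGG and 10.5 in CGG-Cit, and 17.4 and 13.5 for Ccl4. Of the Ccl4 UMIs 35.1% and 36.9% came from 5 members, against 10.7% and 5.83% for Cxcl2.

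Members were ranked within each library by thinned Il1b and split into 3 groups of near equal size, a description since Il1b chose both the members and the order. Cxcl2 was at 2815, 4944 and 11250 CPM from the lowest to the highest group of CGG and at 3167, 4266 and 5504 CPM in CGG-Cit. Nlrp3 had the same order, at 324, 889 and 1176 CPM and at 254, 454 and 636 CPM, and so did Nfkbia, at 769, 1074 and 2222 CPM and at 500, 729 and 1057 CPM. Retnlg was instead lowest in the highest group and near level in the other groups, at 25500, 25926 and 11296 CPM in CGG and 36895, 35463 and 15294 CPM in CGG-Cit. Mmp8 was at 1491, 1222 and 472 CPM and at 1785, 1218 and 553 CPM. With at least 10 raw Il1b UMIs required, shallow members had to have a high Il1b level per UMI, so the order is also one of depth, from a median of 5317 UMIs in the lowest group to 2646 in the highest in CGG and from 5899 to 2649 in CGG-Cit. The part of depth was not tested. Between hydrogels Cxcl2 stood at 11250 and 5504 CPM in the highest group and at 2815 and 3167 CPM in the lowest, a difference between groups that was not tested.

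**Figure D5:**
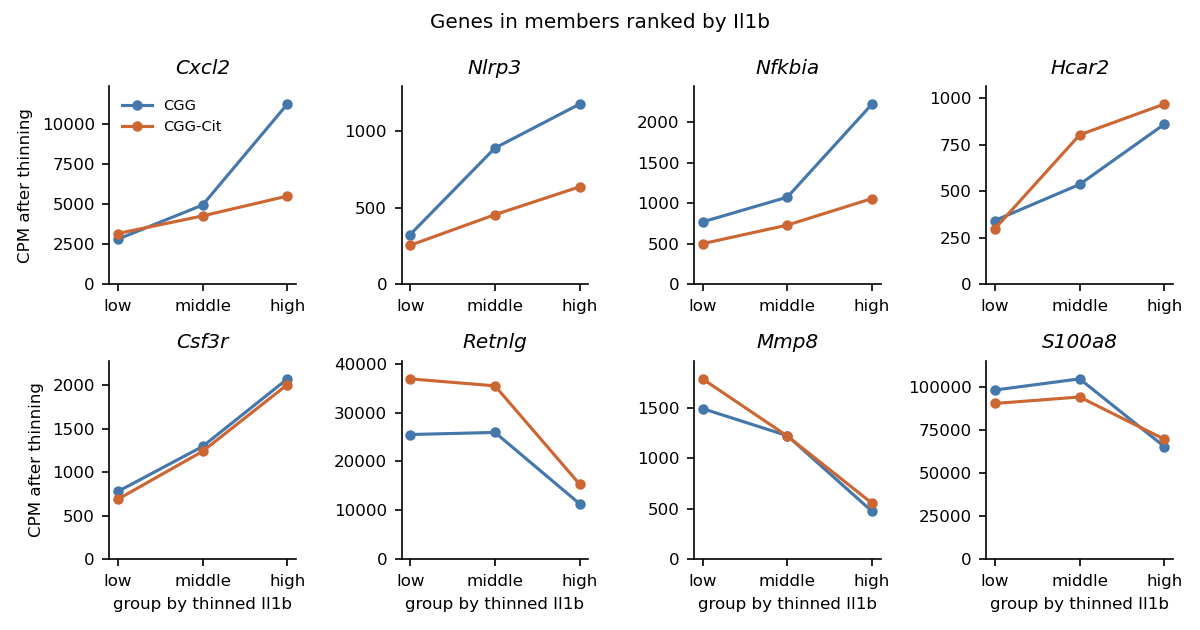
Level of 8 genes (y axis, CPM after thinning each member to 1000 UMIs) in members split into 3 groups by thinned Il1b (x axis), per library. Cxcl2 of the highest group is at 11250 CPM in CGG and 5504 CPM in CGG-Cit, and Retnlg is lowest in that group in both.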

How the data were processed

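Single-cell RNA of calvarial defects was measured in 2 libraries, 1 per hydrogel. The deposited matrices hold raw UMI counts of 27998 genes per barcode, with no normalization by the authors. Cell Ranger is given as 4.0.0 per the file headers and as 3.0, with build mm10, per the submitters' processing notes; which kit version was used is not clear from the labels. Filtered barcodes summed to 92124273 UMIs (CGG) and 104517882 (CGG-Cit), members to 1697947 and 3980215.

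Counts were summed over members per library and divided by their total (CPM). Intervals (95%) are exact Poisson for levels, exact conditional binomial for ratios, Clopper-Pearson for shares and Newcombe for their differences. A ratio of 2 or 0.5 served as the call, as 1 library per group allows no test. Barcodes were thinned to 1000 UMIs with seed 7. Scrublet's own threshold marked 1 CGG barcode, so its 1206 highest scores (0.8% per 1000 barcodes) were marked there, and 537 in CGG-Cit; doublets were kept in the main values. Scripts, checked on simulated data, used Python 3.11.15, numpy 2.4.6, scipy 1.17.1, pandas 2.3.3, scanpy 1.11.5 and statsmodels 0.14.6. Named genes were the rule's genes, the list genes, the 10 highest and 10 lowest between hydrogels by the interval bound nearest 1 under the level rule given in the text, the 15 highest and 10 lowest against low-Il1b neutrophils, and the 10 most variable. Members and lists were chosen with earlier results of these data known. Promoters and their coordinates are from RefSeq (GRCm38.p6). Thresholds, doublets, scaling, gene filters and thinning were varied.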

Additional observations from a re-analysis of the deposited data

Results flagged for a closer look

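For 5 gene lists the summed ratio of CGG-Cit over CGG lay on opposite sides of 1 in high-Il1b and low-Il1b neutrophils; with 1 library per hydrogel these differences were not tested. Interferon-induced genes had a ratio of 1.06 in high-Il1b and 0.858 in low-Il1b neutrophils. Secondary and tertiary granule genes had 1.13 and 0.769, and stefin A genes 1.12 and 0.585. Hypoxia and glycolysis genes had 0.879 and 1.03, and the Siglec-F list 0.896 and 1.05. Among barcodes of at most 10000 UMIs the values lay on opposite sides for stefin A genes only, at 1.27 and 0.954. The interval of the latter, 0.895 to 1.02, includes 1. There the other lists had 1.26 and 1.43 (interferon), 1.24 and 1.46 (granules), 0.870 and 0.950 (hypoxia), and 0.613 and 0.432 (Siglec-F).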

How the results depend on the processing

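Of 208 list medians under the alternatives, 165 stayed within the spread of the main value, 39 lay outside it and 4 were counted as reversed. The spread covers counting error only. A reversal was counted only where the main value's interval lay wholly above or wholly below no change. Some medians counted as within or outside the spread therefore also changed sign. Immediate early genes went from -0.25 to 0.27 up to 10000 UMIs. Citrate genes went from 0.29 to -1.52 over genes low in B-lineage barcodes. The cause was not tested. The share of filtered barcodes was higher with CGG-Cit by 2.97 percentage points at an Il1b minimum of 20 UMIs, 2.04 points with thinned barcodes and 5.47 points up to 10000 UMIs. The difference in the share of neutrophil barcodes was 8.41 points with thinned barcodes. Genes at least 2-fold higher numbered 522 without predicted doublets, 709 with the C1q sum under 3 UMIs, 149 under a filter of 50 UMIs and 25 CPM, 2476 with every gene, 4 over genes low in B-lineage barcodes and 205 up to 10000 UMIs, where the gene filter was applied anew. Genes at least 2-fold lower numbered 295 without predicted doublets, 247 in thinned members, 249 under the stricter filter, 3188 with every gene and 63 over genes low in B-lineage barcodes.

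The other values are medians of the log2 ratio. The mark of an opposite sign is given only to those counted as reversed. Unmarked values of immediate early, trafficking, citrate and interferon genes also differ in sign from their main median. At an Il1b minimum of 20 UMIs they were -1.08 for chemokines, -0.20 for primary granules (opposite sign), -0.24 for secondary granules and 0.95 for stefin A. Without predicted doublets they were -0.57 for chemokines, 0.50 for interferon genes, 2.80 for primary and -0.19 for secondary granules, 0.10 for stefin A and 0.25 for immediate early genes. With the C1q sum under 3 UMIs they were -0.37 for pattern recognition, 4.39 for primary and -0.25 for secondary granules. The stricter filter gave -0.82 for chemokines, 0.51 for primary granules and 0.075 for stefin A, and every gene gave -0.40 for pattern recognition and 0.65 for stefin A. Over genes low in B-lineage barcodes, which left 6 of the NF-kappaB list, the medians were -0.69 for NF-kappaB, -0.82 for chemokines, -0.27 for growth signals, 0.022 for secondary granules (opposite sign), -1.52 for citrate, -0.69 for survival, -0.71 for immediate early genes and -0.59 for the Siglec-F list. Thinned members gave -0.72 for NF-kappaB, -0.73 for chemokines, 0.68 for interferon genes, 0.94 for primary and 0.10 for secondary granules (opposite sign). Up to 10000 UMIs the values were -0.74 for chemokines, 0.044 for trafficking, -0.029 for pattern recognition, 0.37 for interferon genes, 1.20 for primary and 0.072 for secondary granules (opposite sign), and 0.27 for immediate early genes. Members with 5% or more of UMIs from S100a8 and S100a9, a limit chosen after the data were seen, gave -0.77 for chemokines, 0.27 for interferon genes, 3.02 for primary and -0.00070 for secondary granules, and 0.12 for immediate early genes. The NF-kappaB and chemokine medians were below 0 under every alternative listed in this section.

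No paired analysis was possible because each hydrogel had 1 library. Leaving out a replicate was likewise not possible, and depth limits genes of under 20 UMIs, which were not measured.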
